A study of Mus musculus with 8 samples.

Results

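Ret is the receptor tyrosine kinase through which the ligands of the GDNF family signal, and Gfra1, Gfra2 and Gfra3 encode co-receptors that bind those ligands and present them to it. The probe sets described here are all those whose platform annotation names only one of these 4 genes, out of 18193 genes with a probe set that names them alone. These probe sets number 11 of the 45037 probe sets other than controls, with 2 for Ret, 3 for Gfra1, 5 for Gfra2 and 1 for Gfra3, and 0 probe sets with several gene names included any of them. The rule that takes them is the gene name, and the genes themselves were picked with earlier results of these data known.

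A GDNF family ligand first binds a co-receptor held in the outer membrane by a lipid anchor, and the complex then brings Ret molecules together so that the kinase domains phosphorylate each other. Each co-receptor has a preferred ligand, GDNF for Gfra1, neurturin for Gfra2 and artemin for Gfra3. In sensory ganglia Ret and Gfra2 are known from nociceptors without neuropeptides and from some mechanoreceptors, Gfra3 from peptidergic nociceptors, and Gfra1 from further neurons and from Schwann cells.

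The study comprised 8 Affymetrix expression arrays of mouse RNA, of which 4 are labelled Exp and 4 Ctrl. The labels give no genotype, strain, treatment, time or age for either group. The tissue is called trigeminal ganglion, the ganglion of facial sensation, in one field, and brain and adrenal medulla in others. Arrays are numbered 1 to 4 in each group. The labels do not say whether they stem from different animals, and p-values therefore measure the spread between these arrays, which may be technical.

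The deposited values are linear signals, with array medians of 478 to 553 and the same trimmed mean of 2500 on every array, and the number of arrays limits the precision of each comparison. Probe sets were tested where their mean reached the 40th percentile, a signal of about 333. Of all 18193 genes, 12763 had a probe set that reached it. A count of markers near that share does not show that their cell type was present. Of 17 measured markers of sensory ganglion neurons 16 lay above this level, among them Pou4f1, Isl1 and Prph. Of 8 adrenal cortex markers 3 did, of 8 brain neuron markers 2, of 13 chromaffin and sympathetic markers 9 and of 12 Schwann cell and satellite glia markers 12. The chromaffin and sympathetic markers above it included Th, which starts catecholamine synthesis, with mean signals of 5055 in Exp and 5443 in Ctrl, and Pnmt, the adrenaline-forming enzyme, with 1025 in Exp and 1127 in Ctrl, as well as Chga and Chgb. Below it by their log2 means lay Dbh, the enzyme that makes noradrenaline, with mean signals of 457 in Exp and 253 in Ctrl, and the sympathetic factors Phox2a, Hand2 and Gata3. In a fit of all 45037 probe sets Dbh was higher in Exp by 0.77 log2 units (SE 0.28; limma unadjusted p = 0.0256, adjusted p = 0.997). Every Exp array lay above every Ctrl array for Dbh, and groups did not overlap in 2.52% of all probe sets. The summed signal of the skeletal muscle markers varied more among the Exp than among the Ctrl arrays, at 10722, 19640, 58403 and 5146 in Exp 1 to 4, against 8049, 6741, 6507 and 10279 in Ctrl 1 to 4. Of the other lists, 11 of 12 skeletal muscle, 6 of 8 epithelial, 4 of 6 endothelial, 3 of 4 erythroid, 3 of 8 astrocyte and oligodendrocyte, 3 of 6 enteric and 3 of 6 motor neuron markers reached it. The labels imply a comparison of Exp with Ctrl and state no question.

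None of the probe sets for Ret and the 3 co-receptors differed between Exp and Ctrl beyond the spread between arrays. Of the 8 member probe sets that passed the filter, 0 were called at a 5% false discovery rate, where 0.00370% of the 27022 tested probe sets were called. At an unadjusted p under 0.05 the limma count was also 0, where 4.69% of all tested probe sets lay below that value. The 3 members below the filter had unadjusted limma p-values of 0.232 or more, where 4.93% of all 45037 probe sets were under 0.05 and 0 were called. In none of the 11 member probe sets were the 4 Exp arrays separate from the 4 Ctrl arrays, which happened in 2.34% of the tested probe sets and in 2.52% of all. The single call on the whole array was 1300017J02Rik, no member, with a log2 difference of 2.43 (SE 0.21). Differences of the 8 tested members ran from -0.12 to 0.24 on the log2(signal + 16) scale, with a median of 0.06 beside a median of -0.01 over all tested probe sets, and 5 were positive and 3 negative.

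**Figure D1:**
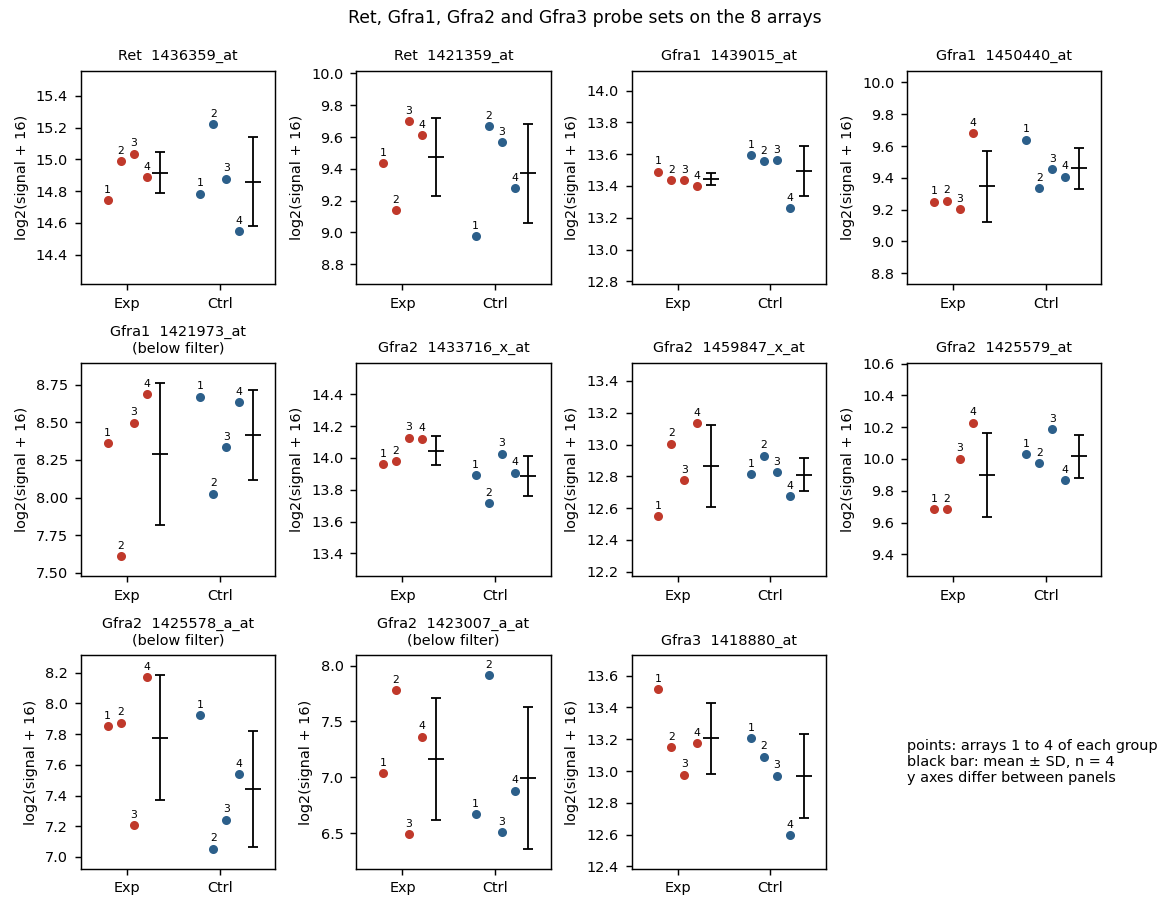
Each panel shows 1 probe set on the 8 arrays, with the 4 Exp arrays left and the 4 Ctrl arrays right, as quantile-normalized log2(signal + 16), and black bars give the mean ± SD (n = 4 each). The groups overlap in all 11 panels, and Ctrl 4 is the lowest array for the brightest Ret and Gfra1 probe sets and for Gfra3.

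Ret was read by 2 probe sets. For the brighter, 1436359_at, the deposited signals were 26632, 32777, 34506 and 30945 in Exp 1 to 4, against 27947, 37286, 30055 and 24042 in Ctrl 1 to 4. Both the highest and the lowest of the 8 values were Ctrl arrays, Ctrl 2 and Ctrl 4, and the Exp values lay between them. On the log2 scale the mean was 14.92 ± 0.13 in Exp and 14.86 ± 0.28 in Ctrl (SD, n = 4 each). The difference was 0.06 (SE 0.15, 95% confidence interval -0.28 to 0.40; limma adjusted p = 0.999), which in folds is 1.04 with an interval of 0.822 to 1.31. Without Ctrl 4 the difference was -0.05 and without Ctrl 2 it was 0.18, so that its sign turned when Ctrl 4 was left out.

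The other Ret probe set, 1421359_at, gave 700, 562, 782 and 796 in Exp and 516, 743, 729 and 595 in Ctrl. Its lowest array was Ctrl 1 and its highest Exp 3, so the 2 Ret probe sets ordered the arrays differently. The difference was 0.10 log2 units (SE 0.18, 95% confidence interval -0.31 to 0.51).

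Gfra1, the co-receptor preferred by GDNF, was read by 3 probe sets, and all 3 had negative differences that did not pass the test. The brightest, 1439015_at, had signals of 11456, 10949, 11138 and 10693 in Exp and of 12142, 12274, 12144 and 9843 in Ctrl. The Exp arrays were close together, 3 Ctrl arrays lay above all of them, and Ctrl 4 lay below. The log2 mean was 13.44 ± 0.04 in Exp and 13.49 ± 0.16 in Ctrl (SD, n = 4 each), a difference of -0.05 (SE 0.10, 95% confidence interval -0.29 to 0.18; limma adjusted p = 0.999). Without Ctrl 4 it was -0.13, and the unadjusted p was then 0.204 in limma.

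The probe set 1450440_at, built on the same transcript accession as 1421973_at, had signals of 614, 609, 549 and 836 in Exp and of 825, 581, 670 and 651 in Ctrl. In Exp the high value was that of Exp 4, and the other Exp arrays fell within or below the lower part of the Ctrl range. Its difference was -0.11 (SE 0.13), and it was -0.22 without Exp 4 and -0.05 without Ctrl 1. The third, 1421973_at, had a mean below the filter, with signals of 181 to 423 in Exp and 222 to 413 in Ctrl. In the fit without the filter it differed by -0.13 (SE 0.26, 95% confidence interval -0.73 to 0.48).

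Gfra2, the co-receptor preferred by neurturin, had 5 probe sets, of which 3 passed the filter. The names of 2 end in _x_at, a suffix for probe sets with some probes that also match other transcripts, and the accession column of the annotation is empty for both. The brightest, 1433716_x_at, gave 15677, 16019, 18105 and 17775 in Exp, against 14932, 13813, 16718 and 15457 in Ctrl. Exp 3 and Exp 4 exceeded every Ctrl array, while Exp 1 and Exp 2 lay below Ctrl 3. The log2 mean was 14.05 ± 0.09 in Exp and 13.89 ± 0.13 in Ctrl (SD, n = 4 each). The difference was 0.16 (SE 0.10, 95% confidence interval -0.07 to 0.39), with an unadjusted p of 0.153, the smallest of any tested member, and an adjusted p of 0.999 in limma.

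The second Gfra2 probe set, 1459847_x_at, gave 6024, 8100, 7003 and 8857 in Exp and 7151, 7963, 7291 and 6554 in Ctrl. Its highest and lowest arrays were both Exp, and the difference was 0.05 (SE 0.14), or -0.01 with arrays centred on their medians. The third, 1425579_at, gave 844, 827, 969 and 1208 in Exp and 1078, 935, 1144 and 890 in Ctrl, a difference of -0.12 (SE 0.15), which was -0.23 without Exp 4 and -0.04 without Exp 1 or Exp 2. Again the Exp arrays held both extremes. Below the filter, 1425578_a_at and 1423007_a_at had signals of 74 to 291 in Exp and 72 to 237 in Ctrl. Without the filter they differed by 0.34 (SE 0.26) and 0.17 (SE 0.38), and their groups overlapped.

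Gfra3, the co-receptor preferred by artemin, was read by 1418880_at alone. Its signals were 11675, 8932, 8071 and 9098 in Exp and 9312, 8968, 8071 and 6202 in Ctrl. Exp 1 was the highest and Ctrl 4 the lowest of the 8 arrays, and the other 6 ran between 8071 and 9312. The log2 mean was 13.20 ± 0.23 in Exp and 12.97 ± 0.26 in Ctrl (SD, n = 4 each). The difference of 0.24 (SE 0.16, 95% confidence interval -0.13 to 0.61; limma unadjusted p = 0.181, adjusted p = 0.999) was the largest among the tested members. It was 0.13 without Exp 1 and 0.11 without Ctrl 4.

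**Figure D2:**
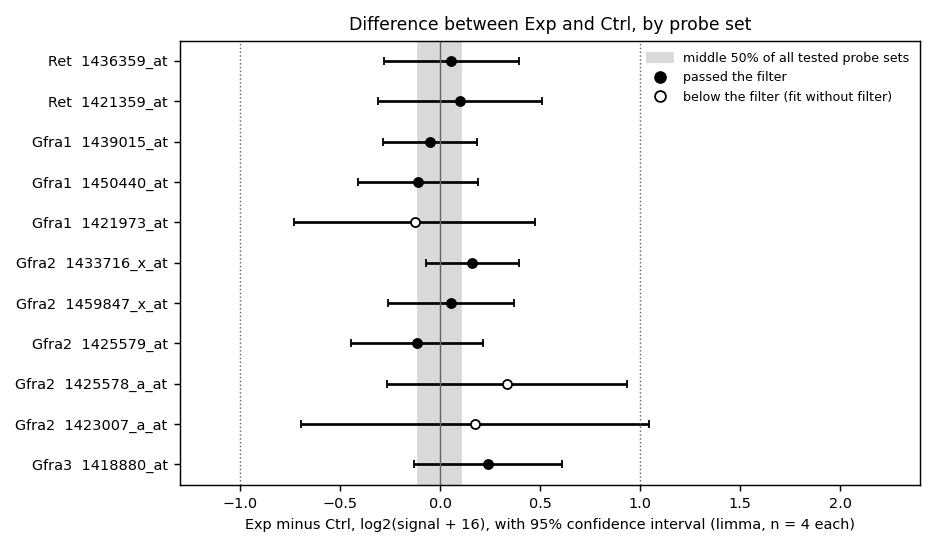
Points give the difference Exp minus Ctrl of each member probe set on the log2(signal + 16) scale, with 95% confidence intervals from limma (n = 4 each), and the grey band spans the quartiles of all tested probe sets. All 11 intervals include 0, and those of the 8 tested probe sets lie inside the dotted lines at -1 and 1.

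The intervals state which changes these arrays exclude. For all 8 tested members the 95% interval lay inside -1 to 1 log2 units, as it did for 93.5% of all tested probe sets. For 6 of the 8 it lay inside -0.5 to 0.5, the exceptions being 1421359_at of Ret and the Gfra3 probe set. Standard errors ran from 0.10 to 0.18, beside a median of 0.15 over all tested probe sets. When the log2 values of a gene's tested probe sets were averaged, the differences were 0.08 (SE 0.14) for Ret, -0.08 (SE 0.09) for Gfra1, 0.03 (SE 0.11) for Gfra2 and 0.24 (SE 0.16) for Gfra3.

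Since a co-receptor acts with Ret, the 6 log2 ratios between the members' brightest probe sets were also compared, each taken within an array. This shows unequal change between genes and no ratio of transcript amounts. None passed after adjustment, and the groups overlapped in all 6. The largest difference was that of Gfra1 over Gfra3. Its log2 ratio was -0.03, 0.29, 0.46 and 0.22 in Exp and 0.38, 0.46, 0.59 and 0.66 in Ctrl, so 3 Exp arrays lay below every Ctrl array and Exp 3 lay within the Ctrl range. The mean was 0.24 ± 0.20 in Exp and 0.53 ± 0.12 in Ctrl (SD, n = 4 each), a difference of -0.29 (exact permutation test over all 70 orders, two-sided, p = 0.0571, adjusted over the 6 pairs 0.343). The smallest p that 4 arrays against 4 allow is 0.0286. Neither a single ratio at that p nor all ratios of a single member could pass adjustment over the 6 pairs. The lack of a call therefore says little about any single member.

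The ratio of Gfra1 over Gfra2 differed by -0.21 (exact permutation p = 0.114, adjusted 0.343). The ratios of Ret over Gfra1, Gfra2 and Gfra3 differed by 0.11, -0.10 and -0.18, with exact permutation p-values of 0.457, 0.800 and 0.457. That of Gfra2 over Gfra3 differed by -0.08 (exact permutation p = 0.743).

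**Figure D3:**
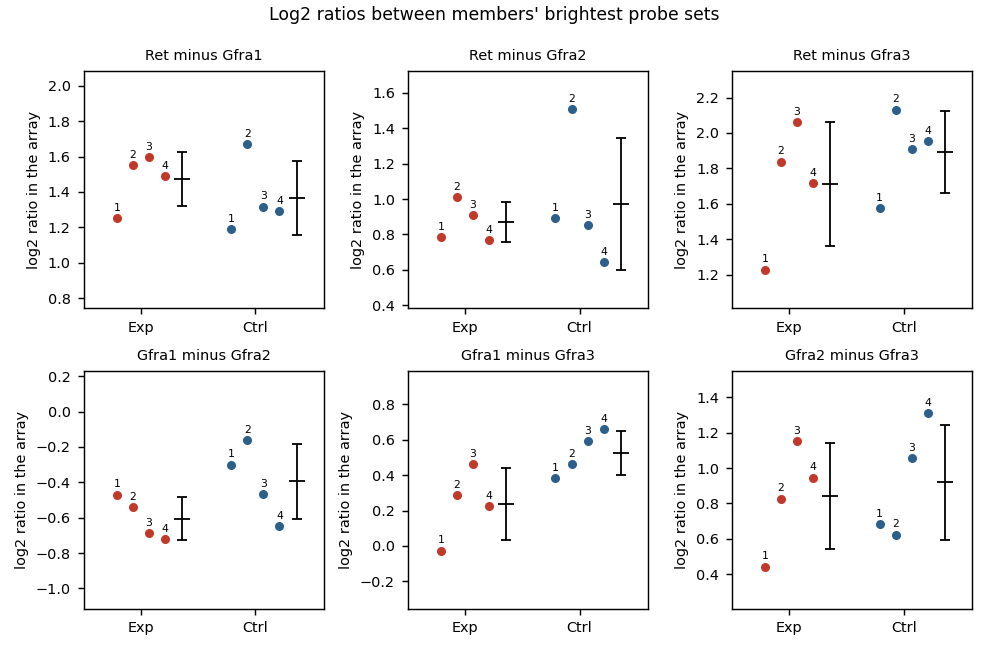
Each panel shows the log2 ratio between the brightest probe sets of 2 members on each array, Exp left and Ctrl right, with the mean ± SD as black bars (n = 4 each). The groups overlap in all 6 panels, least in that of Gfra1 over Gfra3, where 3 Exp arrays lie below every Ctrl array.

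Within a gene, the brightest probe set was set against each of the others in the same way, in 7 ratios. For Gfra2, 1433716_x_at over 1425579_at was 4.27, 4.29, 4.13 and 3.89 in Exp and 3.86, 3.74, 3.84 and 4.04 in Ctrl, a difference of 0.28 (exact permutation p = 0.0571, adjusted over the 7 ratios 0.40). Here 3 Exp arrays lay above every Ctrl array and Exp 4 lay below Ctrl 4. The other 6 ratios differed by -0.18 to 0.11, and the smallest exact permutation p among them was 0.514. After adjustment over the 7 ratios a single ratio could not pass here either.

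The genes whose variation within groups was most like that of a member were sought among 12759 other tested genes, by Pearson r over the 8 arrays after removal of the group means. For Ret they were the tubulin kinase gene Ttbk2 (r = 0.995), the sodium leak channel subunit Unc80 (0.985) and the synaptic adhesion gene Lrfn5 (0.978). The genes nearest Gfra1 were Phf1, a Polycomb-associated factor (0.989), the palmitoyltransferase gene Zdhhc16 (0.970) and Palm2 (0.970). For Gfra2 they were Wdr25 (0.980), Ggh, a folate hydrolase (0.978), and Btbd9 (0.978). Nearest to Gfra3 were the trafficking gene Trappc11 (0.984), 9530057J20Rik (0.984) and Ogt, the enzyme of O-GlcNAc modification (0.981). These values are a description, since with so few arrays r exceeded 0.9 for 61 genes with Ret, 31 with Gfra1, 43 with Gfra2 and 27 with Gfra3. None of the 12 genes was itself called.

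The ligands were near the lower end of measurement. Of the 4 ligand genes with a probe set that names them alone, Gdnf, Nrtn and Artn lay below the filter. So did Gfra4, the co-receptor preferred by persephin, and only Pspn, which encodes persephin, was tested. Their values below come from the fit without the filter.

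Gdnf, the founding ligand of the family, was lower in every Exp array than in every Ctrl array. Its signals were 45.7, 203, 111 and 124 in Exp, against 473, 261, 312 and 470 in Ctrl. The log2 mean was 6.94 ± 0.76 in Exp and 8.62 ± 0.34 in Ctrl (SD, n = 4 each), a difference of -1.68 (SE 0.37, 95% confidence interval -2.54 to -0.82). It did not pass, with an unadjusted p of 0.00209 and an adjusted p of 0.785 in limma. Among all 45037 probe sets 118, or 0.262%, had a p at or below that of Gdnf, 1.29% had all Exp arrays below all Ctrl arrays, and 0.124% met both conditions. Of the 12 Schwann cell and satellite glia markers, all above the filter, 11 were lower in Exp and 1 higher, with a median difference of -0.24, 2 unadjusted limma p-values under 0.05 and 0 calls. Their mean log2 level, centred on the 8 arrays, was -0.37 to 0.00 in Exp and 0.00 to 0.35 in Ctrl, and their summed signal 170389 to 197695 in Exp and 181991 to 212140 in Ctrl. The sum weighs Fabp7 most, the 1 marker higher in Exp, with mean signals of 101466 in Exp and 95583 in Ctrl. Egr2, a regulator of myelination, differed by -2.66 (SE 0.97) with overlapping groups. Without it, a choice made after its values were seen, the level was -0.16 to -0.02 in Exp and -0.05 to 0.15 in Ctrl. The part of these markers, and of the muscle markers given above, in the Gdnf difference was not tested. Fewer cells of a type and less RNA per cell cannot be told apart in such samples.

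Nrtn, which encodes neurturin, gave 386, 81.8, 214 and 380 in Exp and 277, 352, 375 and 381 in Ctrl. The groups overlapped, with the lowest value in Exp 2, and the difference was -0.62 (SE 0.43), or -0.20 without Exp 2. Artn, which encodes artemin, had the lowest signals of the 8 arrays in Exp 3 (16.3) and Ctrl 1 (17.8) and the highest in Ctrl 2 (169), a spread that left a difference of 0.17 with an SE of 0.65. Pspn differed by -0.16 (SE 0.23). Gfra4 gave 146, 279, 347 and 189 in Exp and 295, 425, 407 and 290 in Ctrl. Only Exp 3 reached into the Ctrl range, and the difference was -0.64 (SE 0.30; limma unadjusted p = 0.0672, adjusted p = 0.997).

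**Figure D4:**
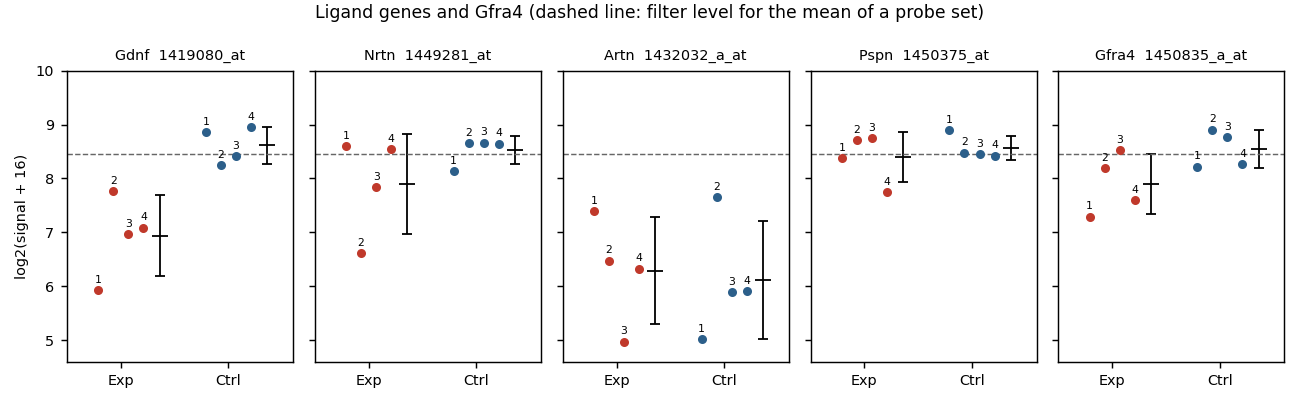
The 4 ligand genes and Gfra4 are shown on the 8 arrays as quantile-normalized log2(signal + 16), Exp left and Ctrl right, with the mean ± SD as black bars (n = 4 each) and the filter level dashed. The 4 Exp arrays lie below the 4 Ctrl arrays for Gdnf alone, and most values lie near or below the dashed line.

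Proteins that bind GDNF without Ret were read by several probe sets. For Ncam1, the neural cell adhesion molecule, the brightest of 7 probe sets differed by -0.03 (SE 0.09), and for Sdc3, the heparan sulfate carrier syndecan-3, the brightest of 3 differed by 0.00 (SE 0.13). Ncam1 probe sets disagreed. The signal of 1426865_a_at was 27275, 24646, 22166 and 22175 in Exp and 20441, 18347, 13348 and 15521 in Ctrl, higher in every Exp array than in every Ctrl array, as were 1.06% of all tested probe sets, with a difference of 0.52 (SE 0.16; limma unadjusted p = 0.00984, adjusted p = 0.999). In contrast, 1439556_at differed by -0.52 (SE 0.19; limma unadjusted p = 0.0238), with Exp 2 above Ctrl 2. These 2 were singled out after their values were seen, and the other 4 ran from -0.10 to 0.05. Ncam1 shares a chromosome with 1300017J02Rik in the assembly GRCm38.p6, and whether this bears on it was not tested.

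No gene of the signalling apparatus around Ret passed the test. Of 123 genes in 7 lists 102 had a probe set that names them alone. Probe sets with several names or none were not assigned to genes, so the other genes are not shown to be absent from the array. Of the 102, 90 were tested and 0 were called. An unadjusted limma p under 0.05 was found for 4. Over all 12763 tested genes, each by its brightest probe set, 45.2% were higher in Exp, the median difference was -0.01, and 3.73% had such a p. Groups did not overlap for 3 of the 90, Mapk9, Gga3 and Etv5, each higher in Exp, and for 2.25% of all tested genes.

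Among adaptors and proximal partners of Ret, 13 of 25 tested genes were higher and 12 lower, with a median of 0.01. Smallest in p were the kinase gene Src at 0.27 (SE 0.12), the docking protein gene Dok4 at -0.23 (SE 0.13) and the adaptor gene Grb10 at 0.13 (SE 0.09). The kinase cascades had 7 of 17 genes higher and a median of -0.02, and all 17 lay within 0.5 log2 units of 0. Mapk9, a Jun kinase, differed by 0.13 (SE 0.09), Pik3ca, the catalytic subunit of PI3 kinase, by 0.09 (SE 0.10) and the survival kinase gene Akt1 by -0.12 (SE 0.16).

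The list on attenuation and trafficking of Ret, or attenuation of its signalling, had 5 of 17 genes higher and a median of -0.05. The largest difference was that of Ptprj, a receptor tyrosine phosphatase, at -0.79 (SE 0.34; limma unadjusted p = 0.0448, adjusted p = 0.999), with an SD of 0.79 in Exp and 0.15 in Ctrl. The difference was -0.46 without Exp 4. This probe set was the brightest of 4 for Ptprj, and the others are not given here. Its log2 means of 8.07 in Exp and 8.86 in Ctrl lay on either side of the filter level of 8.45. The sorting adaptor gene Gga3 differed by 0.19 (SE 0.10) and Cbl, the ubiquitin ligase of activated receptor kinases, by 0.16 (SE 0.12).

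Of 12 tested transcription factors linked to Ret expression, 7 were higher and the median was 0.02. In this list 3 genes had an unadjusted limma p under 0.05 and 0 were called. They were Klf7 at 0.29 (SE 0.11), the glial factor Sox10 at -0.33 (SE 0.14) and the ETS factor Etv5 at 0.20 (SE 0.09), each with an adjusted p of 0.999. These are the brightest of 4 probe sets for Klf7, of 3 for Sox10 and of 3 for Etv5, and the others are not given here. Sox10 is itself one of the Schwann cell and satellite glia markers given above, and the part of that list's shift in its value was not tested. The sensory neuron subtype genes had 9 of 16 higher, a median of 0.01 and 0 with such a p. Ntrk3, the neurotrophin-3 receptor, differed by -0.23 (SE 0.16), the kinase gene Prkcq by -0.22 (SE 0.16) and the peptide precursor Nppb by 0.11 (SE 0.15).

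**Figure D5:**
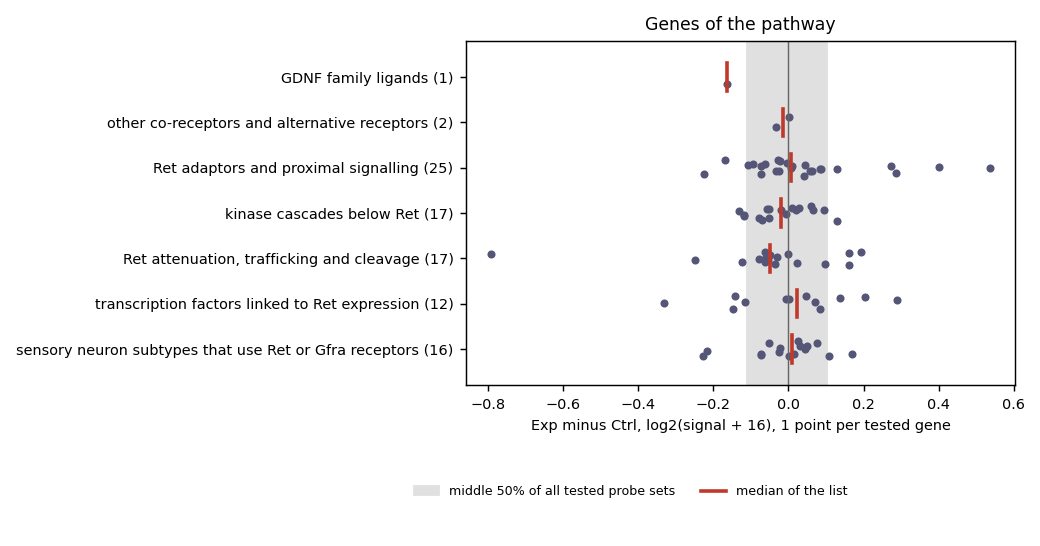
Each point is the difference Exp minus Ctrl of 1 tested gene on the log2(signal + 16) scale, by list, with the number of tested genes in parentheses, the list's median in red and the quartiles of all tested probe sets in grey. The medians of the 7 lists lie between -0.16 and 0.02, and the farthest point is Ptprj at -0.79, a gene near the filter level.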

How the data were processed

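RNA of 4 Exp and 4 Ctrl arrays was compared, grouped by sample title. The deposited table holds 1 linear intensity for each array and probe set, with no account of the method in the sources used here. Equal trimmed means on all arrays are what global scaling gives, so differences are relative to the bulk of probe sets.

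Signals were taken as log2(signal + 16) and quantile-normalized. After removal of 64 control probe sets, those with a mean under the 40th percentile were dropped, which left 27022. The groups were compared with limma 3.58.1 in R 4.3.3 (lmFit, eBayes). Two-sided p-values of the whole tested set were adjusted by Benjamini-Hochberg, with 0.05 as the threshold. Members below the filter took their values from the fit without it. Within-array ratios were compared by exact permutation. The pipeline was tested on simulated data with 50 changed probe sets at each size. It called 12% of changes of 0.5 log2 units, 52% of 1, 90% of 1.5 and 88% of 2. Small changes can therefore go uncalled.

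Gene names came from the platform annotation, updated by Entrez identifier through the RefSeq table of GRCm38.p6; 34945 probe sets had 1 name, 34741 of them matched, 932 had several names and 9160 none. The files name no genome build, so no coordinates are given. Named genes were all members, ligands and other receptors, in each list the 3 genes of smallest p, and the 3 genes most like each member. The members, lists and settings were chosen with earlier results of these data known. Alternatives were other pseudocounts, filters and normalizations, array weights, eBayes with trend and robust, a block on the replicate number, the signal of the Y-linked Eif2s3y as a covariate, gene means, and leaving out each array. Plots used matplotlib 3.10.9.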

Additional observations from a re-analysis of the deposited data

Results flagged for a closer look

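In 8 of 96 groups of 4 arrays, the highest or lowest array stood off from the next by more than 0.829 of the range, where chance gives about 4.8. Among signals on the log2 scale, Exp 4 lay apart for Gfra1 1450440_at at 9.68 (the other Exp arrays 9.202 to 9.257) and Ctrl 4 for Gfra1 1439015_at at 13.26 (the other Ctrl arrays 13.56 to 13.59). Exp 1 lay apart for Mapk9 at 12.34 (the other Exp arrays 12.27 to 12.28). Ctrl 1 was the array concerned for Nrtn at 8.13 (8.65 to 8.66 elsewhere in Ctrl) and for Pspn at 8.89 (8.42 to 8.48). Among the within-gene log2 ratios, Exp 2 lay apart for the 2 Ret probe sets at 5.85 (5.28 to 5.34), Exp 4 for Gfra1 1439015_at over 1450440_at at 3.72 (4.18 to 4.24) and Exp 3 for Gfra2 1433716_x_at over 1425578_a_at at 6.92 (5.95 to 6.11).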

How the results depend on the processing

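No member probe set was called under any alternative run (194 values for the 11 probe sets, lowest limma adjusted p 0.741, lowest unadjusted p 0.0559), and 6 of these values changed sign. Other filters, the replicate block and eBayes with trend and robust cannot change a difference, so the sign was fixed in those runs. The 6 changes came with 1 array left out or with arrays centred on their medians. No gene of the pathway lists was called in any alternative run, nor any ratio with other pseudocounts, without quantile normalization or, between members, with gene means. For a ratio that changed alone this outcome was fixed by the number of arrays. With 1 array left out in turn, log2 differences lay between -0.0476 and 0.179 for Ret 1436359_at, -0.0344 and 0.208 for Ret 1421359_at, -0.261 and 0.0983 for Gfra1 1421973_at, -0.0341 and 0.160 for Gfra2 1459847_x_at and -0.0317 and 0.487 for Gfra2 1423007_a_at. Without a change of sign, those of Gfra1 1439015_at lay between -0.129 and -0.0157, of Gfra1 1450440_at between -0.224 and -0.0506, of Gfra2 1433716_x_at between 0.104 and 0.208, of Gfra2 1425579_at between -0.227 and -0.0441 and of Gfra2 1425578_a_at between 0.202 and 0.528, and those of Gfra3 between 0.115 and 0.319. In the same fits Nrtn lay between -0.858 and -0.195, Gfra4 between -0.850 and -0.435, Ptprj between -0.923 and -0.464 in the 3 fits where it passed the filter, Artn between -0.192 and 0.688, Pspn between -0.211 and 0.0505 where it passed the filter, Nppb between -0.0203 and 0.196 and Sdc3 1450027_at between -0.0757 and 0.0754. Log2 ratios differed by -0.216 to 0.0749 for Ret over Gfra2, -0.181 to 0.0565 for Gfra2 over Gfra3, -0.178 to 0.0645 for the 2 Ret probe sets, -0.000945 to 0.187 for Gfra1 1439015_at over 1450440_at, -0.148 to 0.230 over 1421973_at, and -0.383 to 0.214 for Gfra2 1433716_x_at over 1423007_a_at. The last was 0.0359 with a pseudocount of 64. With arrays centred on medians Gfra2 1459847_x_at was -0.0108 and Sdc3 1450027_at -0.0283. Sdc3 was -0.0740 with array weights and -0.0117 with the Eif2s3y covariate, and Ncam1 1426864_a_at was 0.0405 without quantile normalization. The cause of these sign changes was not tested. Gdnf lay between -1.95 and -1.34 over its 16 alternatives (limma adjusted p 0.4995 to 0.9999).

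Over the whole array 1 probe set was called, 1300017J02Rik. The count was 0 without a filter, with the Eif2s3y covariate and with the replicate block. It was also 0 with a filter at the 60th percentile, which dropped 1300017J02Rik itself. With 1 array left out the count was 0 to 1, being 1 only without Exp 2. Deviations of same-numbered arrays from their group means correlated at 0.02, 0.05, -0.07 and -0.12, and no array correlated best with its own number, so the numbers were not taken as pairs. Each number stands for 1 Exp and 1 Ctrl array, so the replicate block cannot change a difference, only its SE and p. No member was called with it. The number of arrays limits the precision, and signals below the filter carry no detection call.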
